A study of Mus musculus with 10 samples.

Results

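The genes that encode the proteins of the cytosolic ribosome were examined in subcutaneous B16OVA melanomas injected with BO-112 or with vehicle. Members were chosen by gene symbol alone, as the large-subunit (Rpl and Rplp) and small-subunit (Rps and Rpsa) names of the array annotation, without pseudogenes and without the Rps6k kinases. This rule found 60 genes of 19505 named genes on the array, 37 of the large and 23 of the small subunit, each with 1 probe set. They lie on 17 chromosomes, with Rps4x, Rpl36a and Rpl39 on the X chromosome. Several familiar members, such as Rplp2, Rps3, Rpl10, Rpl13a and Rps27a, carry no symbol of this kind in the annotation used and were not analysed here.

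BO-112 tumors came from 5 mice that received intratumoral BO-112, a nanoplex of polyethylenimine with Poly I:C, which mimics double-stranded RNA, and 5 control mice received the same volume of vehicle, a 5% glucose solution. All mice were C57BL/6 (B6 in the labels), female and 8 to 10 weeks old according to the methods for such experiments, and all carried tumors grown from B16OVA cells, a melanoma line that expresses the model antigen ovalbumin. Whole tumors were taken 48 h after the second of 2 injections, so each sample holds tumor cells together with leukocytes, vessels and adjacent tissue. Total RNA of each tumor was hybridized to 1 Clariom S Mouse array. Values are log2 expression values from the Robust Multichip Average (RMA), and every difference is BO-112 minus Vehicle on that log2 scale. In such bulk samples, fewer cells of a type and less RNA per cell cannot be told apart.

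The small ribosomal subunit reads the mRNA and the large subunit joins amino acids, and each subunit is built from ribosomal RNA and a set of proteins that are needed in equal numbers. Many mRNAs of ribosomal proteins begin with a terminal oligopyrimidine (TOP) tract, through which the kinase complex mTORC1 and the RNA-binding protein LARP1 set how well they are translated. An array measures the amount of these mRNAs and not their translation. Double-stranded RNA is also an activator of the kinase PKR, encoded by Eif2ak2, which slows translation initiation in infected cells.

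Sequences around the annotated start were read from the RefSeq promoter table of assembly GRCm38.p6, which held 47 of the 60 genes. A run of 8 or more C or T letters on the gene's strand, within the window of 10 bases before to 20 bases after the start, was present in 17 of the 47 (36.2%), against 13.0% of all 27025 genes of that table. The windows of 5 genes are shown, a choice made after their values were seen: among genes with a run, Rpl7a, Rpl14 and Rpl38 had the lowest p-values, and Rpl38, Rps24 and Rpl28 the highest estimates. Capitals mark each such run, of which Rpl38 holds 2 and the others 1. The coordinates are chr2:26910797-26910826 for Rpl7a, chr9:120571507-120571536 for Rpl14, chr11:114668570-114668599 for Rpl38, chr14:24490668-24490697 for Rps24 and chr7:4792955-4792984 for Rpl28, all on the plus strand and all written 5′ to 3′.
Rpl7a: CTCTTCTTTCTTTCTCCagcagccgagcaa
Rpl14: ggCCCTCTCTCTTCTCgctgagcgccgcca
Rpl38: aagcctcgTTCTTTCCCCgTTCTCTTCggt
Rps24: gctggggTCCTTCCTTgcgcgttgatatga
Rpl28: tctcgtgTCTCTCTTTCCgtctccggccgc
Genes with such a run were found on both sides of 0. The 17 genes with a run had a median log2 fold change of -0.10, and 13 of them were negative. The 30 without one had a median of -0.21, and 26 of them were negative. Other letters were searched on both strands of the 300 bases around the start. CCGGAAG, the core bound by ETS factors such as GABP, was found in 20 of the 47 (42.6%), against 9.93% of all genes and 12.9% of coding genes. AAGATGGC, the core of the YY1 motif, was found in 3 of 47 (6.38%), against 3.19% of all genes. A match describes the letters and not a bound site.

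Between BO-112 and Vehicle tumors, 2 of the 60 ribosomal protein genes passed the test, and both were lower in BO-112: Rplp0, the base of the ribosomal stalk that recruits elongation factors, and Rps4x, an X-linked small-subunit protein. No member was called higher. The 2 lower genes are 3.33% of the members, beside 2.79% of all 21792 tested probe sets called lower, 2.43% called higher and 5.22% called in either direction (limma, Benjamini-Hochberg adjusted p under 0.05). The members' share of calls was thus near that of the whole array. By the stricter rule of a B-statistic over 0, 0 of 60 members passed by limma, against 2.18% of all probe sets (0.954% lower and 1.23% higher). By contrast, 20 members were lower and 1 was higher at an unadjusted limma p under 0.05, against 14.1% and 10.9% of all probe sets.

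Although few genes passed, most estimates lay on the same side. The log2 fold change was below 0 in 51 of 60 members (85%), against 47.7% of all tested probe sets. Its median was -0.16, a fold of 0.896, with quartiles of -0.29 and -0.05, whereas the median of all tested probe sets was 0.01 with quartiles of -0.19 and 0.18. Members ranged from -0.60 to 0.24, and 2 of them exceeded a 1.5-fold difference. All 60 passed the filter on low values, so this count and median cover every member. Both subunits gave similar figures. The median was -0.15 with 31 of 37 genes negative in the large subunit, and -0.20 with 20 of 23 genes negative in the small subunit. Under quantile normalization on top of RMA, 38 of the 60 members were negative, against 55.4% of all probe sets. The medians were then -0.09 for the members and -0.03 for all. Among probe sets with a mean above 6, a class that holds 58 of the 60 members, the median was -0.17 for the members and -0.10 for all. Probe sets of this brightness thus also had a negative median. Most members were brighter still, with a median at percentile 98.6 of the probe set means. The 95th percentile of the arrays averaged 10.13 in BO-112 and 10.24 in Vehicle tumors, and the 99th percentile 11.60 and 11.70. Whether the members differed from other probe sets of equal brightness was not tested.

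**Figure D1:**
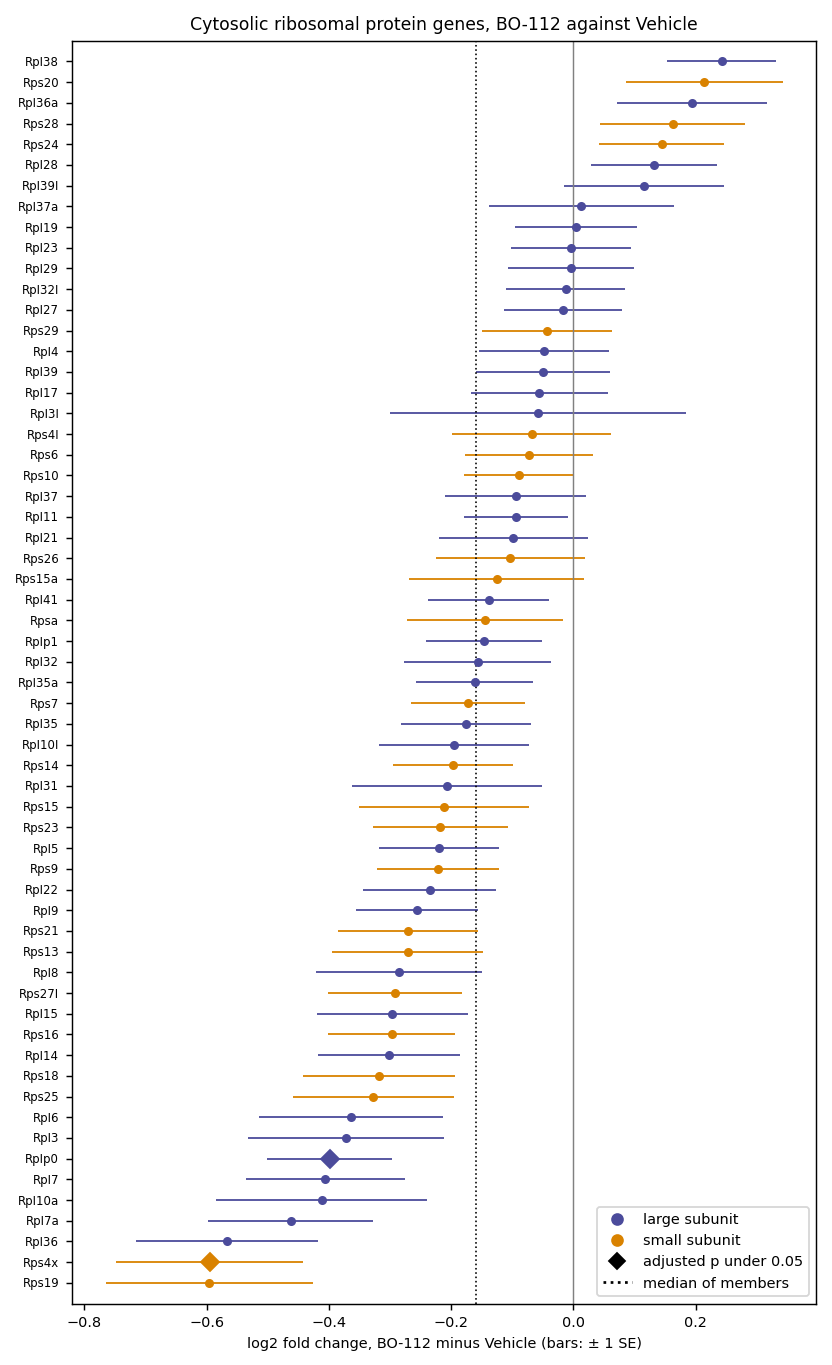
Log2 fold change (BO-112 minus Vehicle, horizontal axis) of the 60 cytosolic ribosomal protein genes, ordered by value, with bars of 1 SE from limma, 5 tumors per group. Diamonds mark Rplp0 and Rps4x, the 2 genes that passed the test, and the dotted line the median of the members at -0.16; 51 of the 60 points lie below 0.

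Rplp0, which is also a common reference gene in quantitative PCR, had values of 11.22, 11.11, 11.11, 11.23 and 10.83 in the BO-112 tumors and of 11.44, 11.47, 11.45, 11.52 and 11.63 in the Vehicle tumors. Every BO-112 tumor lay below every Vehicle tumor, and BO-112 mouse 5 was the lowest. Its log2 fold change was -0.40 (SE 0.10, limma adjusted p = 0.0466). The call was kept without BO-112 mouse 4 and lost when any of the other 9 mice was left out, and its adjusted p ranged from 0.0283 to 0.525 over all alternative fits.

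Rps4x had values of 10.70, 10.58, 10.58, 10.78 and 10.35 in the BO-112 tumors and of 10.71, 11.17, 11.12, 11.45 and 11.52 in the Vehicle tumors. The groups overlapped, since Vehicle mouse 1 lay below BO-112 mouse 4. The log2 fold change was -0.60 (SE 0.15, limma adjusted p = 0.0479), and the means were 10.60 ± 0.16 in BO-112 and 11.19 ± 0.32 in Vehicle tumors (SD, n = 5 each). Its call was kept without BO-112 mouse 4 or without Vehicle mouse 1 and was lost without any of the other 8 mice, with adjusted p between 0.0178 and 0.597 over all alternative fits. The related gene Rps4l, also a member, is named here for its likeness to Rps4x and outside the rule for named genes. Its log2 fold change was -0.07, with values from 6.34 to 7.01 in BO-112 and from 6.51 to 6.92 in Vehicle tumors.

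The next genes by p-value had larger or similar estimates and missed the threshold. Rpl36, a large-subunit protein, had 9.03, 8.76, 8.97, 9.21 and 8.48 in BO-112 and 9.18, 9.50, 9.34, 9.60 and 9.67 in Vehicle tumors, a difference of -0.57 (limma adjusted p = 0.0507). Rps19, a small-subunit protein whose human gene is mutated in Diamond-Blackfan anemia, had 10.38, 10.06, 10.21, 10.57 and 9.84 in BO-112 and 10.41, 10.85, 10.62, 11.02 and 11.13 in Vehicle tumors, a difference of -0.60 (limma adjusted p = 0.0641). In both genes a single Vehicle tumor, that of mouse 1, fell within the BO-112 range, and BO-112 mouse 5 was the lowest. Without Vehicle mouse 1, Rpl36, Rps19 and Rps4x were the 3 members called lower (5%), against 1.81% of all probe sets. Without BO-112 mouse 4, 6 members (10%) were called lower, against 8.67% of all probe sets, namely Rplp0, Rps4x, Rpl36, Rps19, Rpl7a and Rpl15, the last of which is named here after its values were seen.

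Rpl7a, a large-subunit protein, had 10.99, 10.98, 10.85, 10.99 and 10.44 in BO-112 and 11.12, 11.18, 11.24, 11.53 and 11.49 in Vehicle tumors. No BO-112 tumor reached a Vehicle tumor, and mouse 5 stood apart from the other 4 BO-112 mice. The difference was -0.46 (SE 0.14, limma adjusted p = 0.0689). For Rpl7 and Rps16, a large-subunit protein and a small-subunit protein near the decoding site, the differences were -0.41 and -0.30 (limma adjusted p = 0.0884 and 0.108), and their groups overlapped.

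**Figure D2:**
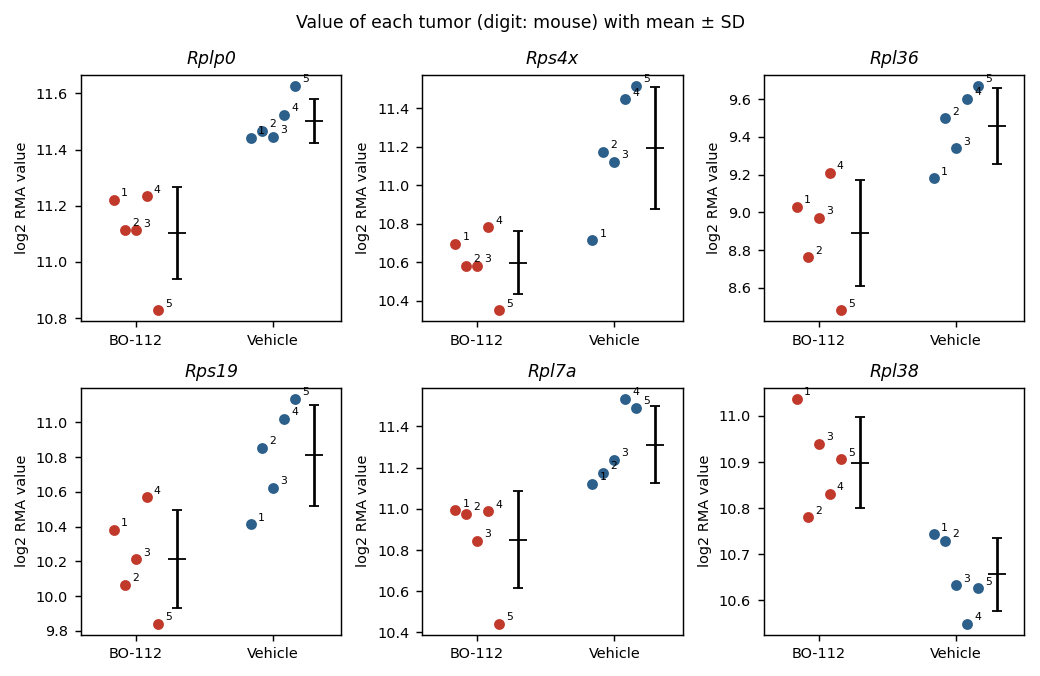
Log2 RMA value of each tumor for 6 ribosomal protein genes, BO-112 on the left and Vehicle on the right of each panel, with the mouse number beside each point and a bar for the mean ± SD (n = 5). Each panel has its own vertical range; Rplp0, Rpl7a and Rpl38 show no overlap between groups, and in Rps4x, Rpl36 and Rps19 Vehicle mouse 1 reaches into the BO-112 range.

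Rpl38, a large-subunit protein needed for the patterning of the axial skeleton in mice, went against most of the group. It had 11.04, 10.78, 10.94, 10.83 and 10.91 in BO-112 tumors and 10.74, 10.73, 10.63, 10.55 and 10.63 in Vehicle tumors. All BO-112 values lay above all Vehicle values, and the difference of 0.24 (SE 0.09) missed the threshold (limma adjusted p = 0.124). Under quantile normalization on top of RMA it was 0.35 and passed (limma adjusted p = 0.0486). Groups did not overlap in 1 member with higher BO-112 values, against 3.39% of all probe sets, and in 5 members with lower ones (8.33%), against 5.3% of all probe sets. The 5 were Rplp0, Rpl7a, Rpl14, Rps7 and Rpl8, the last 3 of which are named here after their values were seen.

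The other members with the highest estimates were Rps20 (0.21), Rpl36a (0.19) and Rps28 (0.16), a small-subunit protein at the mRNA exit. Their limma adjusted p-values were 0.325, 0.349 and 0.419. Rps20 had 10.83, 11.03, 10.95, 11.10 and 11.38 in BO-112 and 10.68, 10.87, 10.68, 10.85 and 11.13 in Vehicle tumors, so its groups overlapped widely and BO-112 mouse 5, the lowest BO-112 tumor for 37 members, was its highest.

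With only 2 members called, calls could hardly set places in the ribosome apart, and no such group held more than 1. Of the 2 stalk proteins measured, Rplp0 fell and Rplp1, a stalk protein that binds to it, had a difference of -0.15 (limma adjusted p = 0.364). Rpl5 and Rpl11 form a ribonucleoprotein with the smallest ribosomal RNA of the large subunit and can bind Mdm2 when not built into ribosomes. They had differences of -0.22 and -0.09 (limma adjusted p = 0.191 and 0.518). Among 6 proteins of the exit tunnel and its port, 5 estimates were negative with a median of -0.05, and among 4 proteins at the mRNA entry and decoding sites all 4 were negative with a median of -0.26, with 0 calls in either. The 5 proteins of the platform, mRNA exit and beak had a median of -0.10, and Rpsa among them, also described as a laminin receptor, had a difference of -0.14 (limma adjusted p = 0.508). Rps6, the substrate of S6 kinase, had a difference of -0.07 (limma adjusted p = 0.701), with 12.19, 11.96, 12.16, 12.31 and 11.95 in BO-112 and 12.11, 12.27, 12.30, 12.02 and 12.22 in Vehicle tumors. Of 8 genes known from Diamond-Blackfan anemia in humans, 7 had negative estimates, with a median of -0.13, and 0 passed.

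Several ribosomal protein genes have close copies with tissue-restricted or inducible expression. Rps27l, which p53 induces, had 8.43, 8.40, 8.80, 8.75 and 8.50 in BO-112 and 8.72, 8.88, 8.98, 8.82 and 8.94 in Vehicle tumors, a difference of -0.29 (limma adjusted p = 0.132). Of 3 genes of the Mdm2 and p53 list, 0 fell and 2, both classical p53 targets, rose: Mdm2, which restrains p53, by 0.63 (SE 0.12, limma adjusted p = 0.0188) and the cell cycle inhibitor Cdkn1a by 0.64 (SE 0.15, limma adjusted p = 0.0353). Rpl10l, a testis copy of Rpl10, had a difference of -0.20 (limma adjusted p = 0.344). Rpl3l of striated muscle and Rpl39l of male germ cells did not exceed the 75th percentile of the negative control probe sets on any array, whereas the other 58 members did on all 10. Rpl3l read 6.01 in BO-112 mouse 5 and between 4.57 and 5.34 in the other BO-112 tumors, and between 4.82 and 5.63 in Vehicle tumors.

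For 2 pairs, the difference between copy and parent gene was taken in each tumor and compared between groups by a two-sided exact permutation test over the 252 splits of the 10 tumors, which can give no p below 0.00794. Rpl3l minus Rpl3 differed by 0.31 (exact p = 0.571, adjusted over the 2 pairs 0.571), where Rpl3 itself had a difference of -0.37 (limma adjusted p = 0.177). Rpl39l minus Rpl39 differed by 0.17 (exact p = 0.214, adjusted over the 2 pairs 0.429), where Rpl39 had a difference of -0.05. As neither copy exceeded the negative controls, these values say little of the copies themselves.

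The downward estimates were not carried evenly by the tumors. The median deviation of the 60 genes from their Vehicle means was -0.10, -0.18, -0.18, -0.08 and -0.24 in BO-112 mice 1 to 5 and -0.12, 0.04, -0.07, 0.01 and 0.14 in Vehicle mice 1 to 5. The groups overlapped, because Vehicle mouse 1 lay below BO-112 mice 1 and 4. BO-112 mouse 5 was the lowest of all 10 tumors for 30 members and Vehicle mouse 5 the highest for 25. Without BO-112 mouse 5, 47 of the 60 estimates were negative and 0 members were called. Of all probe sets, 2.21% were called lower and 2.07% higher in this fit. Without both BO-112 mice 2 and 5, 44 were negative and 0 were called, against 1.54% and 2.28% of all probe sets. The medians of the members in these fits were -0.14 and -0.13, against 0.003 and -0.01 for all probe sets.

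**Figure D3:**
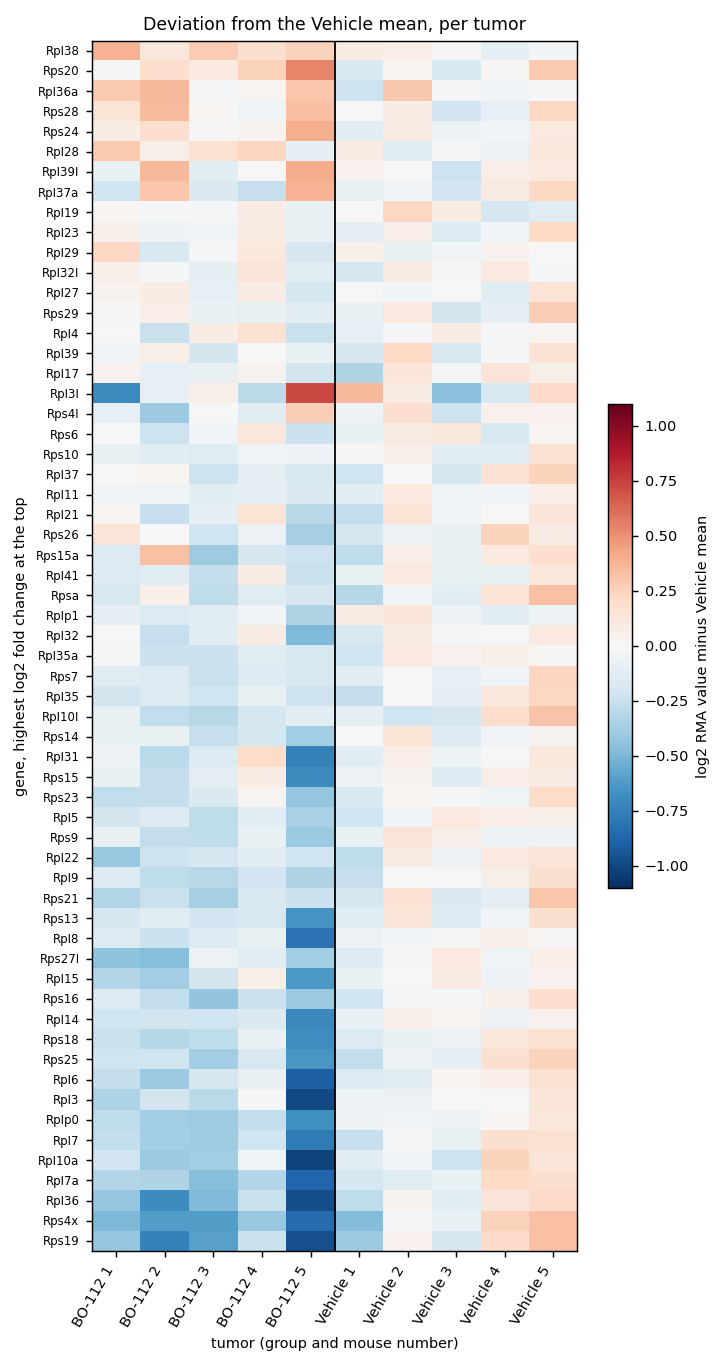
Log2 RMA value minus the Vehicle mean for the 60 genes (rows, highest log2 fold change at the top) in the 5 BO-112 tumors (left) and the 5 Vehicle tumors (right), with red above and blue below the Vehicle mean. The darkest blue column is BO-112 mouse 5, the lowest tumor for 30 genes, and the same tumor is red in several of the top rows.

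Array quality and tissue composition also differed between tumors. The array contrast is how often, over all pairs of a positive and a negative control probe set, the positive one was the brighter, as a share. It was 0.867, 0.845, 0.869, 0.883 and 0.855 in BO-112 and 0.867, 0.889, 0.882, 0.879 and 0.891 in Vehicle tumors. Vehicle mouse 1 had the lowest contrast and the lowest ribosomal protein values of its group, and Vehicle mouse 5 the highest of both. In the BO-112 group, however, mouse 2 had the lowest contrast and mouse 5 the lowest ribosomal protein values. With the contrast as a covariate, the median of the members was -0.08 and 41 were negative, against 51.3% of all probe sets. In this fit 0 members were called, while the calls over all probe sets were 27 in place of 1138. The contrast averaged 0.864 in BO-112 and 0.882 in Vehicle tumors, so contrast and treatment cannot be fully told apart here.

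Of 10 melanocyte markers, all exceeded the negative controls on every array, as did 3 of 15 leukocyte markers. The melanocyte mean was 10.13 to 11.51 in BO-112 and 11.38 to 11.61 in Vehicle tumors, with the lowest value in BO-112 mouse 5. In the melanocyte list 0 genes rose and 1 of 10 fell, the pigment transporter gene Oca2 (-1.18, limma adjusted p = 0.0444). The leukocyte mean was 6.26 to 8.26 in BO-112 and 5.45 to 6.52 in Vehicle tumors, and 2 of 15 markers rose, the T cell genes Cd8a (2.43, limma adjusted p = 0.0202) and Cd3g (1.91, limma adjusted p = 0.0257). None of the 15 fell. Both T cell genes exceeded the negative controls on all 5 BO-112 arrays, but among the 5 Vehicle arrays Cd8a did so on only 1 and Cd3g on 0.

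The mean of 12 skeletal muscle markers was 6.07, 8.74, 8.54, 5.94 and 10.75 in BO-112 and 9.14, 8.11, 7.25, 6.11 and 6.03 in Vehicle tumors. The Vehicle tumor with most muscle RNA, mouse 1, had the lowest ribosomal protein values of its group and the one with least, mouse 5, the highest. Vehicle mouse 2 went the other way: it had more muscle RNA than mice 3 and 4, but a median deviation of 0.04, against -0.07 and 0.01. In the BO-112 group the 2 orders were exactly inverse. From least to most muscle RNA (mice 4, 1, 3, 2 and 5), the median deviations were -0.078, -0.097, -0.182, -0.183 and -0.241. With muscle and keratinocyte means as covariates, the median of the members was -0.13 and 5 were called lower (8.33%), against 4.19% of all probe sets. Means of 10 keratinocyte markers ranged from 5.56 to 9.28 in BO-112 and from 5.56 to 8.09 in Vehicle tumors, those of 3 erythroid markers from 6.10 to 6.53 in BO-112 and from 6.01 to 6.61 in Vehicle tumors, and those of 10 fibroblast and endothelial markers from 7.50 to 9.39 in BO-112 and from 6.68 to 8.81 in Vehicle tumors. Of the muscle and keratinocyte markers, 4 of 12 and 0 of 10 exceeded the negative controls on all arrays, as did 1 of 3 erythroid and 7 of 10 fibroblast and endothelial markers. In these 4 lists 0 genes passed; Mylpf (1.20) and Actn3 (0.45) of muscle, Trp63 (0.67) and Sfn (0.60) of keratinocytes, Epb42 (0.25) and Alas2 (-0.26) of erythroid cells, and Dcn (1.51) and Pecam1 (0.44) of stroma and vessels had the lowest p-values of their lists. For the muscle and keratinocyte genes, the sign turned under some alternatives. The part of the melanocyte and leukocyte content in the ribosomal protein values was not tested.

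**Figure D4:**
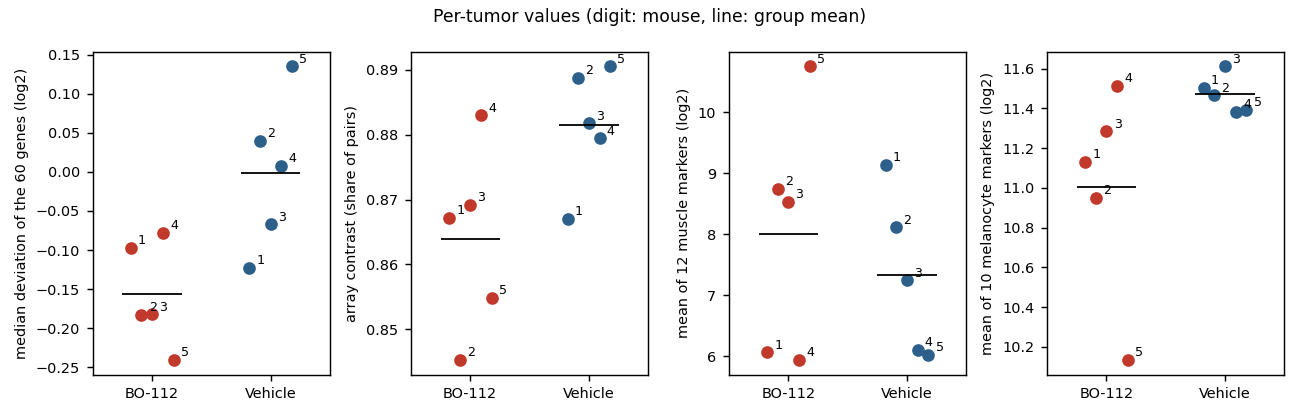
Values of each tumor (mouse number beside the point, line at the group mean), BO-112 left and Vehicle right: median deviation of the 60 ribosomal protein genes from their Vehicle means (log2), array contrast (share of pairs), and mean log2 value of 12 muscle and 10 melanocyte markers. Vehicle mouse 1, lowest of its group in the first panel at -0.12, has the lowest contrast and the highest muscle mean of its group, and BO-112 mouse 5, lowest of all at -0.24, has the highest muscle and lowest melanocyte mean of all tumors.

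Other lists of protein synthesis genes also had negative medians. For comparison, 47.7% of all tested probe sets had negative estimates and 2.79% were called lower. In the fit of probe sets with a mean above 6, the median of all was -0.10 and 6.49% were called lower. Whether these lists differed from other probe sets of equal brightness was not tested. Of 76 mitochondrial ribosomal protein genes, 3 fell and 0 rose, 69 had negative estimates, and the median was -0.22. Mrpl12 fell to 8.77 ± 0.38 in BO-112, against 9.54 ± 0.09 in Vehicle tumors (SD, n = 5 each), a difference of -0.77 (limma adjusted p = 0.0254), and Mrps25 and Mrpl58 by differences of -0.63 and -0.47 (limma adjusted p = 0.0196 and 0.0494). Of 44 ribosome biogenesis factors, 6 fell and 0 rose, with a median of -0.30. Nop16, a nucleolar factor of large-subunit assembly, had 8.88, 8.64, 8.73, 8.70 and 8.36 in BO-112 and 9.15, 9.28, 9.16, 9.13 and 9.36 in Vehicle tumors, so its groups did not overlap, and its difference was -0.56 (limma adjusted p = 0.0199). Nhp2, of the box H/ACA particles that modify ribosomal RNA, fell by 0.83 (limma adjusted p = 0.0198) and Mrto4, which prepares the site of the stalk base on the nascent large subunit, fell by 0.84 (limma adjusted p = 0.0309). Dkc1, the pseudouridine synthase of the same particles as Nhp2, had an estimate of -1.13 (limma adjusted p = 0.0474) but exceeded the negative controls on only 1 of 5 BO-112 arrays. The remaining genes that fell were Ubtf and Nip7.

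Translation factors gave similar medians. Among 30 initiation factors, with a median of -0.30, 0 rose and 2 fell, both subunits of eIF3: Eif3b by 0.73 (limma adjusted p = 0.038) and Eif3e by 0.50 (limma adjusted p = 0.0316). Eif3e had 9.92, 9.81, 9.97, 10.02 and 9.83 in BO-112 and 10.18, 10.24, 10.41, 10.56 and 10.64 in Vehicle tumors, without overlap. Among 15 elongation and termination factors, with a median of -0.24, 0 rose and 1 fell, the release factor gene Gspt1 by 0.92 (limma adjusted p = 0.0261). Among 4 ribosomal protein genes whose symbols lie outside the rule, 0 passed: Rpl22l1 (-0.59, limma adjusted p = 0.0898) and Rpl36al (-0.50, limma adjusted p = 0.0988) had the lowest p-values, Fau, which encodes a small-subunit protein fused to a ubiquitin-like one, had an estimate of 0.23, and Rpl7l1 of -0.18.

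**Figure D5:**
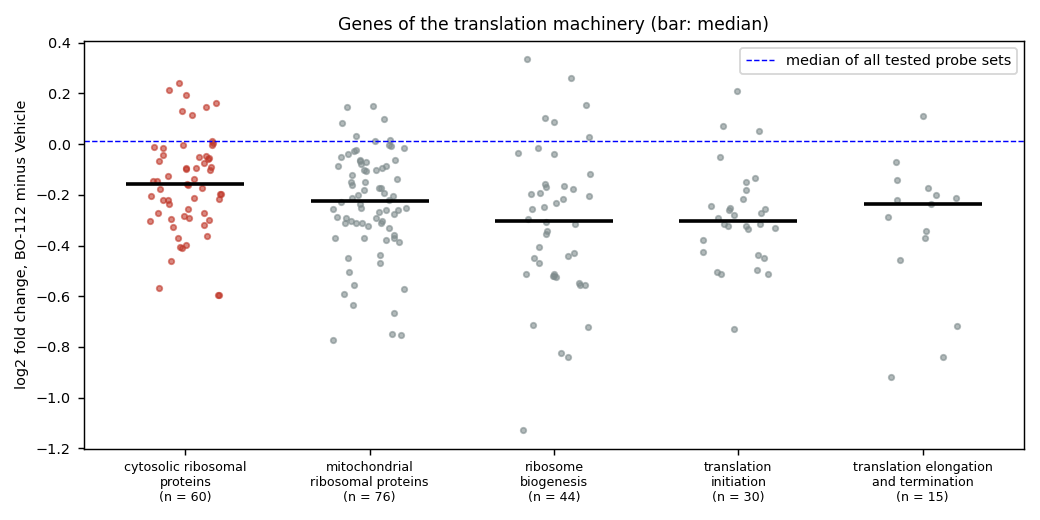
Log2 fold change (BO-112 minus Vehicle, vertical axis) of each gene in 5 lists of protein synthesis genes, with a bar at the list's median and a dashed line at the median of all tested probe sets (0.01). Medians were -0.16 for the 60 cytosolic ribosomal protein genes, -0.22 for mitochondrial ribosomal proteins, -0.30 for biogenesis and for initiation factors, and -0.24 for elongation and termination factors. The median of all probe sets with a mean above 6, not drawn, was -0.10.

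Among regulators, changes went both ways. Of all tested probe sets, 2.79% were called lower and 2.43% higher. Of 23 genes of mTORC1, LARP1 and TOP mRNA control, 0 rose and 2 fell, with a median of -0.27. Eif4ebp2, a repressor of cap-dependent initiation, had 7.58, 7.51, 7.71, 7.96 and 7.53 in BO-112 and 8.41, 8.68, 8.61, 8.38 and 8.37 in Vehicle tumors, a fall of 0.83 without overlap (limma adjusted p = 0.00566), and the GTPase gene Rragc, which brings mTORC1 to the lysosome, fell by 0.59 (limma adjusted p = 0.0321). Larp1 had a difference of -0.05 (limma adjusted p = 0.752). Of 14 transcription factors linked to ribosomal protein genes, Mxd1, an antagonist of Myc, rose by 1.09 (limma adjusted p = 0.033), 0 fell, and Myc itself had a difference of -0.49 (limma adjusted p = 0.239). The values of Larp1 and Myc, and of Fau and Rpl7l1 above, are given outside the rule for named genes.

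Of 13 genes of the integrated stress response, Atf3, a stress-induced transcription factor, rose by 0.85 (limma adjusted p = 0.0415) and 0 fell, and Eif2ak2, also named outside the rule, had a difference of 0.72 (limma adjusted p = 0.0706). In ribosome quality control, 1 of 12 genes rose and 2 fell. Gtpbp2, which acts on stalled ribosomes, had 8.49, 8.27, 8.53, 8.96 and 8.41 in BO-112 and 7.61, 7.40, 7.48, 7.14 and 7.30 in Vehicle tumors, a rise of 1.15 without overlap (limma adjusted p = 0.00355). Ltn1, the ubiquitin ligase for stalled nascent chains, fell by 0.87 (limma adjusted p = 0.0372), and Usp10, a deubiquitinase that acts on small-subunit proteins, by 0.72 (limma adjusted p = 0.0467). Of 3 genes of the GAIT complex, which in human myeloid cells represses translation and which contains the Rpl13a protein, Syncrip fell by 0.46 (limma adjusted p = 0.0431). Of the 23 genes of these lists and of the marker lists that are named here with a call, 2, Gtpbp2 and Eif4ebp2, were called in every fit that left out 1 mouse.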

How the data were processed

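RNA of 10 tumors was measured on Clariom S Mouse arrays, and the authors deposited log2 values for each probe set after RMA. RMA corrects background and makes the arrays' distributions similar, which would hide a change common to most transcripts. Its version and the build behind the probe sets are not given in the sources used here. Of 22206 transcript probe sets, 21792 were tested, those above 4 in 3 or more arrays of BO-112 or of Vehicle. The authors' filter was applied to all transcript probe sets, unmapped ones included, so the tested set can differ from theirs. Their call rule, a B-statistic over 0, is given as a second rule, and calls in the text otherwise use the adjusted p. The fit used lmFit and eBayes of limma 3.58.1 (R 4.3.3) on all 10 arrays without covariates, two-sided, with Benjamini-Hochberg adjustment at 0.05 over all tested probe sets. Each adjusted p-value of a gene is from this limma fit, and SE is its moderated standard error. Symbols came from the platform annotation, and a gene with several probe sets is represented by that of highest mean. Arrays give no read depth, and their number limits the precision.

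The members, gene lists and tests were chosen with earlier results of these data known. Named members are those called, the 8 of lowest p, the 4 highest and 4 lowest log2 fold changes, and a fixed set that includes the copies and their parent genes. From each other list, up to 4 called genes of largest change, or the 2 of lowest p, are named. Other members named are marked as such. The negative control level is the 75th percentile of the 5222 negative control probe sets on each array. The filter was dropped or set to a mean above 6, arrays were centred on their medians or quantile normalized, and limma was run with a robust variance trend, with array weights or with mouse number as block. Each mouse, and BO-112 mice 2 and 5 together, were left out, and array contrast or the muscle and keratinocyte means served as covariates. The limma fit was tested on simulated data with independent noise in each probe set. It recovered 78 of 100 probe sets shifted by 1 and 96 of 100 shifted by 2. Smaller shifts, such as the estimates of all members here, and arrays that deviate together were not simulated. Mouse numbers name separate mice and pair no tumors. Ribosomal protein genes have many processed pseudogenes, and whether these add to the probe signals was not examined.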

Additional observations from a re-analysis of the deposited data

Results flagged for a closer look

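One value stood apart from its group. Rpl7a was 10.44 in BO-112 mouse 5, while the other 4 BO-112 tumors lay between 10.85 and 10.99. The gap was 0.734 of the group's range, above Dixon's critical value of 0.71 for 5 samples. Of 44 groups tested this way (22 genes in BO-112 and in Vehicle tumors) it was the only one, and chance gives about 1 in 20.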

How the results depend on the processing

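The 2 members called lower became 4 of 58 (6.90%) with a mean above 6, against 6.49% of all probe sets, and 5 (8.33%) with muscle and keratinocyte means as covariates, against 4.19%. They became 0 under quantile normalization, without both BO-112 mice 2 and 5, with array contrast as a covariate and by B over 0. The shares of all probe sets called lower were then 2.92%, 1.54%, 0.0275% and 0.954%. Leaving out each mouse gave 0 to 6 members. The number was 0 in 8 of 10 fits, where 0.620% to 2.21% of all probe sets were called lower. It was 6 without BO-112 mouse 4, against 8.67% of all probe sets, and 3 without Vehicle mouse 1, against 1.81%. Members called higher numbered 1 under quantile normalization (Rpl38) and 0 elsewhere. The median of the members stayed negative in all fits, between -0.24 with median centring and -0.08 with array contrast as a covariate, and from -0.20 to -0.12 with 1 mouse left out. Negative estimates numbered 53 of 60 with median centring, against 60.4% of all probe sets, and 38 of 60 under quantile normalization, against 55.4%. Under quantile normalization the median was -0.09 for the members and -0.03 for all probe sets. Median centring moved the median of all probe sets to -0.06 and the calls to 443 higher and 845 lower, against 529 and 609.

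With the mouse number as a replicate block, 0 members were called, and calls over all probe sets were 102 in place of 1138. Tumors of the same number did not deviate together (correlations of -0.31, -0.09, 0.39, -0.21 and -0.26), and 2 of 10 correlated best with their own number, so the numbers pair nothing. Over all probe sets calls numbered 1363 with a mean above 6, 1726 with array weights and 1726 with the muscle and keratinocyte covariates, 27 with the contrast covariate, and 347 to 3135 with 1 mouse left out. As every member has 1 probe set, the choice of probe set gave no alternative.

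Rpl3l minus Rpl3 ranged from -0.037 (without BO-112 mouse 5) to 0.48 with 1 mouse left out and was -0.086 without both BO-112 mice 2 and 5. Rpl39l minus Rpl39 was -0.041 under quantile normalization. Signs also turned for Rps6 (0.021 under quantile normalization, 0.033 without both mice, 0.090 with the contrast covariate), Rpl11 (0.0022 under quantile normalization), Rpl39 (0.050 under quantile normalization, 0.011 with the contrast covariate, -0.095 to 0.0039 with 1 mouse left out), Rpl3l (-0.25 to 0.10 with 1 mouse left out) and Rpl39l (-0.014 with array weights, -0.064 without both mice, -0.052 with the contrast covariate). The same held for Mylpf (-0.51 without both mice, -1.14 with the contrast covariate), Actn3 (-0.044 and -0.13 likewise), Sfn (-0.17 and -0.69 likewise, -0.13 to 0.88 with 1 mouse left out) and Trp63 (-0.63 with the contrast covariate). The causes were not tested. Of 460 values of named members under alternatives, 408 kept direction and side of the threshold, 27 lost the call, 13 gained one and 12 turned sign, and of 692 values of the other named genes these were 482, 200, 2 and 8.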
